A study of Homo sapiens with 6 samples.

Results

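The BCL2 family decides, by binding between its members at the outer membrane of mitochondria, whether that membrane is opened and the intrinsic pathway of apoptosis begins. Here 10 members were followed by symbol in A549 cells, a human lung adenocarcinoma cell line: the BH3-only genes BBC3, PMAIP1, BCL2L11 and BID, the effector genes BAX, BAK1 and BOK, and the anti-apoptotic genes BCL2, BCL2L1 and MCL1. All 10 were found among the 28317 genes of the deposited tables, and all 10 passed the filter on low counts that left 15757 genes to test. The UXS1 KO cells had received lentiCRISPR v2, a lentiviral vector carrying Cas9 and a guide, with the UXS1 guide named g1, and the CTRL cells the same vector with a non-targeting guide. Both groups spent 5 days under puromycin, which kills cells that lack the vector, and RNA was taken on day 7 of infection, with 3 libraries of total RNA each (n = 3 in every mean ± SD below). UXS1 makes UDP-xylose out of UDP-glucuronic acid. A single guide was used against UXS1, and the labels name no clone isolation, so each library is read as a selected population of cells in which individual cells can differ in their edit.

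BH3-only proteins act as sensors of stress: they occupy the groove of the anti-apoptotic proteins through their BH3 helix, and some also activate the effectors directly. Freed or activated effectors form pores in the outer membrane, cytochrome c leaves the mitochondrion, and caspases are switched on. Much of this control acts on the proteins, through binding, cleavage and degradation, whereas the libraries measured mRNA.

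The shared feature of the 10 members is the BH3 segment, so its coding sequence is shown for each. A search of the principal protein of each gene (GENCODE 29, GRCh38) for leucine, any 3 residues, glycine or alanine, then aspartate found exactly 1 match in each of the 10 members. Across the 20016 coding genes searched in the same way, 4880 (24.4%) held at least 1 match and 18.5% exactly 1, so the short pattern is far from particular to the family. Each line gives 45 bases of coding sequence, 5′ to 3′, with the codons of the leucine and of the glycine or alanine and aspartate in capitals.
BBC3: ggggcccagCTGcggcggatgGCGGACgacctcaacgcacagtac
PMAIP1: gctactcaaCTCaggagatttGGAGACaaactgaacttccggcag
BCL2L11: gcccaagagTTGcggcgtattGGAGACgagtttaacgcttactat
BID: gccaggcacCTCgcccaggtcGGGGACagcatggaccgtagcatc
BAX: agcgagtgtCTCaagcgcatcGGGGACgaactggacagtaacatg
BAK1: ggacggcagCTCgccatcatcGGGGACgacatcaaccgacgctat
BOK: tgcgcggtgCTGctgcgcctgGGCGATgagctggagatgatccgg
BCL2: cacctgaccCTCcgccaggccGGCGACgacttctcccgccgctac
BCL2L1: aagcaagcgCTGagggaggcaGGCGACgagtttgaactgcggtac
MCL1: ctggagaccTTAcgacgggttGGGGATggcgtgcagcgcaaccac
BBC3 alone of the 10 has an alanine codon, GCG, in the position where the other members have a glycine codon. Over the 45 bases the closest pair was BID and BAK1, with 28 identical bases (62.2%), followed by BBC3 and BCL2L11 with 27 (60.0%) and by 3 pairs with 26 (57.8%), which were BBC3 and BAK1, BAX and BOK, and BCL2 and BCL2L1. In BBC3, on chromosome 19, the stretch lies at chr19:47226573-47226617 on the minus strand. The stretch of BOK is split by an intron.

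The 6 libraries held 21121489 to 22160405 assigned reads each, and no library stood apart in depth. UXS1 mRNA had 740, 735 and 764 counts in UXS1 KO libraries, against 1346, 1416 and 1372 counts in CTRL libraries, so it was at 54.1% of the CTRL level in CPM (counts normalised to library size with the TMM method). An edited transcript can still be counted, so this mRNA level does not measure how many alleles were edited. All 8 epithelial markers were measured, 5 rose and 1 fell, and they summed to 13380 to 13400 CPM in UXS1 KO and 13220 to 14440 CPM in CTRL libraries. The most abundant, KRT8, averaged 7637 CPM in UXS1 KO and 7440 CPM in CTRL libraries, and neither it nor KRT18 passed the test given below. KRT7 fell, with 1476 CPM in UXS1 KO and 2383 CPM in CTRL libraries. The 5 that rose were KRT19 (194.8 CPM in UXS1 KO and 132.7 CPM in CTRL) and the less abundant CDH1, MUC1, CLDN4 and EPCAM. Summed leukocyte markers, 8 of the 10 listed being measured, were at 27.29 to 28.96 CPM in UXS1 KO against 10.60 to 13.01 CPM in CTRL libraries. Most of that was CD14, with 22.6 CPM in UXS1 KO and 9.15 CPM in CTRL libraries, while CD3D and CD3E had no count in any library. Of 5 leukocyte markers tested 4 rose, CD14 and at low levels CD79A (2.66 CPM in UXS1 KO and 0.710 CPM in CTRL), LCP1 (1.46 CPM in UXS1 KO and 0.588 CPM in CTRL) and LYZ (0.799 CPM in UXS1 KO and 0.0922 CPM in CTRL), and CORO1A fell. Fibroblast markers summed to 27.8 to 30.9 CPM in UXS1 KO and 22.5 to 25.9 CPM in CTRL libraries, with COL1A2 at 0, and 3 of 4 tested rose (THY1, COL3A1 and LUM). COL1A1, the most abundant, did not pass, with 14.81 CPM in UXS1 KO and 14.17 CPM in CTRL libraries. COL3A1 and LUM were rare, at 1.535 and 1.048 CPM in UXS1 KO and 0.746 and 0.527 CPM in CTRL libraries. Endothelial markers summed to 61.2 to 61.9 CPM in UXS1 KO and 50.4 to 54.5 CPM in CTRL libraries, nearly all of it EGFL7, which rose, 1 of 2 tested. By the test given below, 24.5% of all tested genes were higher and 23.7% lower, so changed markers stand on a high background. The part of these marker levels in the results below was not tested, and in bulk RNA fewer cells of a type and less RNA per cell cannot be told apart.

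UXS1 KO cells differed from CTRL cells in both arms of the family. Of the 7 pro-apoptotic members, BBC3, PMAIP1, BCL2L11 and BAK1 rose, BOK fell, and BID and BAX did not pass the test. Of the 3 anti-apoptotic members, BCL2L1 and MCL1 rose and BCL2 fell. The test was edgeR's quasi-likelihood test, two-sided, with Benjamini-Hochberg adjustment over all 15757 genes and a threshold of 0.05. So many genes changed that the background is high: 48.2% of tested genes were called, 24.5% as higher and 23.7% as lower, beside 8 of the 10 members called, 6 higher and 2 lower. Among genes of at least 5 mean CPM, a filter that removes BCL2, 56.4% were called, 28.6% as higher and 27.8% as lower. In that setting 5 pro-apoptotic and 2 anti-apoptotic members were called higher, and 1 pro-apoptotic member lower. The median log2 fold change was 0.15 over the pro-apoptotic members and 0.17 over the anti-apoptotic members, against -0.003 over all tested genes, where a log2 fold change of 1 means a doubling in UXS1 KO over CTRL. In CPM the libraries of the groups did not overlap for 9 of the 10 members, BID being the exception, and did not overlap for 54.5% of all tested genes. For each of those 9 members an exact two-sided permutation test over libraries gave p = 0.1, the smallest that 3 libraries against 3 can give. The labels call the libraries biological triplicates without saying that they came from separate infections, so the p-values measure the spread between these libraries.

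**Figure D1:**
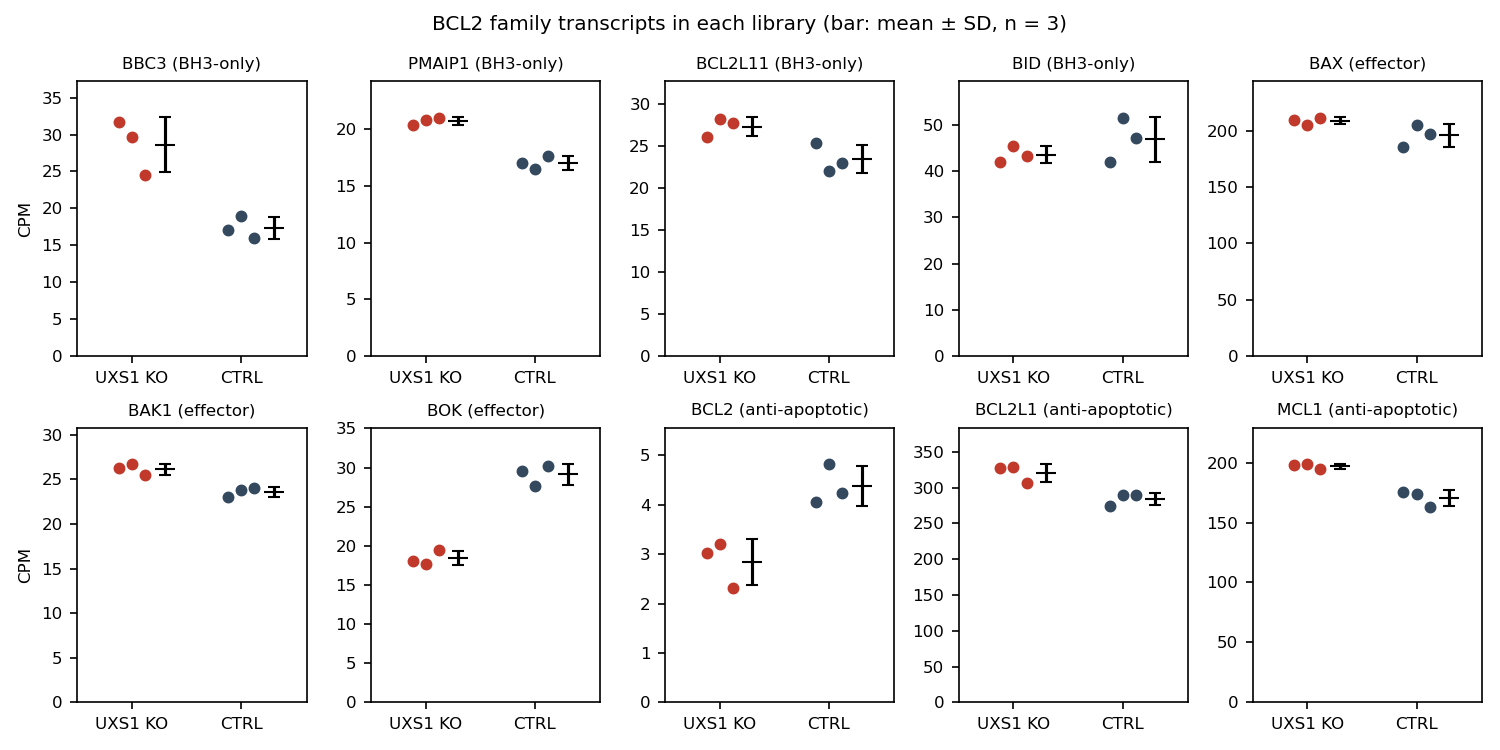
Level of each of the 10 members in every library in CPM, 1 panel per gene, with UXS1 KO libraries left of CTRL libraries, points for single libraries and a bar for the mean ± SD (n = 3). BBC3 stands higher and BOK and BCL2 stand lower in all 3 UXS1 KO libraries than in all 3 CTRL libraries, while the BID libraries of the groups overlap.

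Among the BH3-only members the largest difference was in BBC3, which encodes PUMA, a BH3-only protein that binds every anti-apoptotic member of the family. BBC3 had 31.7, 29.7 and 24.5 CPM in UXS1 KO libraries, against 17.1, 18.91 and 15.96 CPM in CTRL libraries. UXS1 KO replicate 3 was the lowest of its group and still stood above the highest CTRL library. The means were 28.6 ± 3.71 CPM in UXS1 KO and 17.3 ± 1.49 CPM in CTRL, so that UXS1 KO cells were at 165.3% of the CTRL level. The log2 fold change was 0.72 (SE 0.081, 95% interval 0.56 to 0.89, edgeR adjusted p = 3.15e-08), and 8.69% of tested genes had a larger change in either direction.

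PMAIP1 encodes NOXA, a BH3-only protein that binds MCL1 above all and promotes its degradation. It had 20.4, 20.83 and 21.02 CPM in UXS1 KO libraries, against 17.01, 16.47 and 17.6 CPM in CTRL libraries. The groups were tight and did not overlap, and the rise was 0.28 on the log2 scale (SE 0.066, edgeR adjusted p = 0.00077). BCL2L11 encodes BIM, a BH3-only protein that binds the anti-apoptotic members and also activates BAX and BAK1. It had 26.0, 28.1 and 27.7 CPM in UXS1 KO libraries, against 25.29, 22.03 and 22.91 CPM in CTRL libraries. The highest CTRL library came close to the lowest UXS1 KO library, and the rise was 0.22 (SE 0.063, edgeR adjusted p = 0.00513). It did not pass when tested on log2(TPM + 1), with an adjusted p of up to 0.101 over the 3 TPM settings tried.

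BID links the death receptors to mitochondria, since caspase 8 cleaves its protein into the active fragment tBID. BID had 42.0, 45.5 and 43.4 CPM in UXS1 KO libraries, against 42.0, 51.6 and 47.2 CPM in CTRL libraries. The groups overlapped, and the difference of -0.11 did not pass (SE 0.059, 95% interval -0.23 to 0.02, edgeR adjusted p = 0.149; exact permutation p = 0.3). That call depended on 1 library: without CTRL replicate 1 the difference was -0.18 with an edgeR adjusted p of 0.00952. BID was thus the only one of the 4 BH3-only members with a negative estimate, and 3 of the 4 rose, with a median log2 fold change of 0.25. Outside the members, the tested BH3-only genes BAD, BIK and BMF had negative estimates, -0.22, -0.16 and -0.08, and BAD was called lower. Of all tested genes 24.5% were called higher, and so few members allow no statement about BH3-only genes as a class.

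The effector genes moved in different directions. BOK, whose protein can permeabilize the membrane without BAX or BAK1 and is kept low by proteasomal degradation, had 18.1, 17.7 and 19.4 CPM in UXS1 KO libraries, against 29.6, 27.6 and 30.2 CPM in CTRL libraries. The groups were far apart relative to their spread, with means of 18.4 ± 0.90 CPM in UXS1 KO and 29.1 ± 1.36 CPM in CTRL, and UXS1 KO cells at 63.2% of the CTRL level. The log2 fold change of BOK was -0.66 (SE 0.063, 95% interval -0.79 to -0.53, edgeR adjusted p = 1.95e-09), and 10.5% of tested genes had a larger change.

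BAK1 encodes the effector that sits in the outer membrane in resting cells. It had 26.3, 26.7 and 25.5 CPM in UXS1 KO libraries, against 23.0, 23.8 and 24.0 CPM in CTRL libraries. The rise was small, 0.15 (SE 0.059, edgeR adjusted p = 0.0381), and was not called by DESeq2 (adjusted p = 0.179), without a filter on low counts (0.0815) or when UXS1 KO replicate 1 or 2 or CTRL replicate 1 or 2 was left out (0.0924, 0.122, 0.0996 and 0.0609, in that order). BAX encodes the effector that moves from the cytosol to mitochondria on activation. It had 209.8, 205.6 and 211.5 CPM in UXS1 KO libraries, against 185.3, 205.6 and 197.2 CPM in CTRL libraries. UXS1 KO replicate 2 and CTRL replicate 2 were nearly equal, and the difference of 0.09 just missed the threshold (SE 0.039, unadjusted 95% interval 0.01 to 0.17, edgeR adjusted p = 0.0522). Without CTRL replicate 2 it was 0.13 with an edgeR adjusted p of 0.00855, and without CTRL replicate 1 it was 0.05 with an edgeR adjusted p of 0.258.

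Among the anti-apoptotic members, BCL2L1 and MCL1 were abundant and rose modestly. BCL2L1 encodes BCL-XL, a guardian of the outer membrane that lung carcinoma cells often depend on, and its shorter splice form, which the gene counts cannot separate, has the opposite activity. BCL2L1 had 327.4, 328.3 and 305.9 CPM in UXS1 KO libraries, against 274.9, 289.1 and 289.3 CPM in CTRL libraries. UXS1 KO replicate 3 lay closest to the CTRL libraries without reaching them, and the rise was 0.17 (SE 0.037, edgeR adjusted p = 0.000406). MCL1 encodes a short-lived guardian that restrains BAK1 and BIM. It had 197.7, 198.5 and 194.6 CPM in UXS1 KO libraries, against 175.4, 173.4 and 163.0 CPM in CTRL libraries. The groups were well separated, and the rise was 0.21 (SE 0.037, edgeR adjusted p = 4.78e-05).

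BCL2, the founding member of the family, was rare in these cells. It had 64, 68 and 52 counts in UXS1 KO libraries, against 89, 105 and 89 counts in CTRL libraries. All UXS1 KO libraries were lower, with 2.85 ± 0.46 CPM in UXS1 KO and 4.37 ± 0.41 CPM in CTRL, and the log2 fold change was -0.62 (SE 0.15, 95% interval -0.93 to -0.31, edgeR adjusted p = 0.00126). Few counts stand behind this fall, and it did not pass on the TPM scale (limma, -0.57 on log2(TPM + 0.1) with an adjusted p of 0.156, and -0.32 on log2(TPM + 1), where the pseudocount is close to the level itself, with an adjusted p of 0.127, or 0.0835 without a filter).

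**Figure D2:**
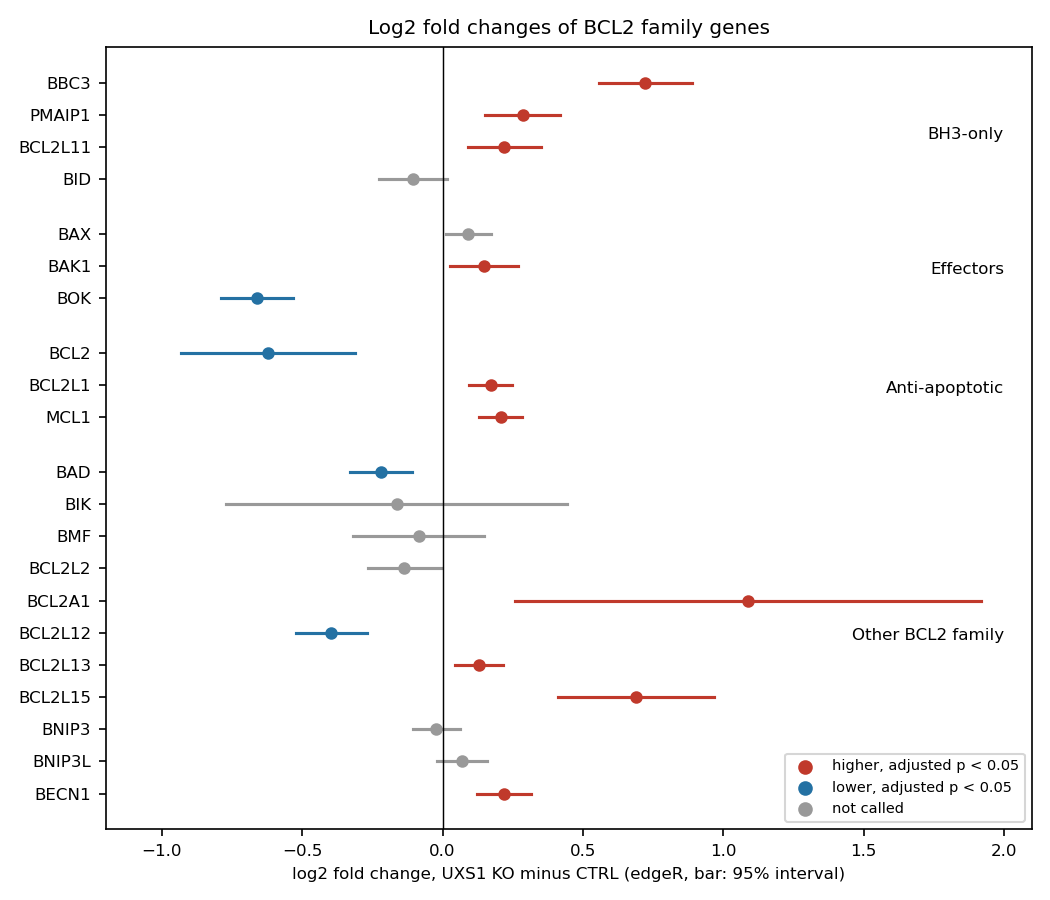
Log2 fold change of each member and of 11 other BCL2 family genes, UXS1 KO over CTRL, with its 95% interval, grouped by role and coloured by direction where the adjusted p was under 0.05. Among the members BBC3 has the largest positive estimate, 0.72, and BOK and BCL2 have the largest negative ones, -0.66 and -0.62, while the other 7 members lie between -0.11 and 0.28.

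For BCL2L1, an exon of the antisense gene ABALON covers 43.0% of the exonic bases on the opposite strand, and ABALON had 102, 93 and 73 counts in UXS1 KO and 112, 98 and 109 counts in CTRL libraries. For BCL2L11, 10.9% of the exonic bases are covered on the opposite strand by MIR4435-2HG, which had 311, 340 and 333 counts in UXS1 KO and 541, 544 and 472 counts in CTRL libraries. BOK overlaps BOK-AS1 on the opposite strand over 7.41% of its exonic bases. The sources used here do not say whether counting used strand, so reads from these overlaps cannot be told apart, and the values of BCL2L1, BCL2L11 and BOK carry that uncertainty. PMAIP1, BID, BAX and BCL2 have no overlapping exon of another gene in GENCODE 29.

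Levels were compared between members in TPM (transcript abundance normalised to depth), which takes transcript length into account. In UXS1 KO cells the order was led by BCL2L1 with 336.8 ± 9.40 TPM, BAX with 281.4 ± 8.08 TPM and MCL1 with 156.9 ± 0.90 TPM. The middle of the family lay far below, with BAK1 at 41.2 ± 0.38 TPM, BID at 34.2 ± 1.16 TPM, PMAIP1 at 33.1 ± 0.81 TPM and BBC3 at 31.3 ± 3.79 TPM. BOK at 23.9 ± 1.51 TPM, BCL2L11 at 14.3 ± 0.57 TPM and BCL2 at 0.84 ± 0.13 TPM closed the order. In CTRL cells the leading 3 were in the same order, with BCL2L1 at 299.3 ± 4.87 TPM, BAX at 264.3 ± 8.60 TPM and MCL1 at 136.2 ± 6.34 TPM. BOK ranked below BBC3 in UXS1 KO cells but next after MCL1 in CTRL cells, at 37.9 ± 2.35 TPM. BBC3, at 18.96 ± 1.41 TPM in CTRL cells, ranked below BID and PMAIP1 there by more than the spread of the libraries. Between neighbours, the library ranges of BID and PMAIP1 and of PMAIP1 and BBC3 overlapped in UXS1 KO cells, and those of BOK and BAK1 and of BAK1 and BID in CTRL cells. Overlap of ranges ignores that both genes were read in the same libraries, and the order of these neighbours was not tested.

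**Figure D3:**
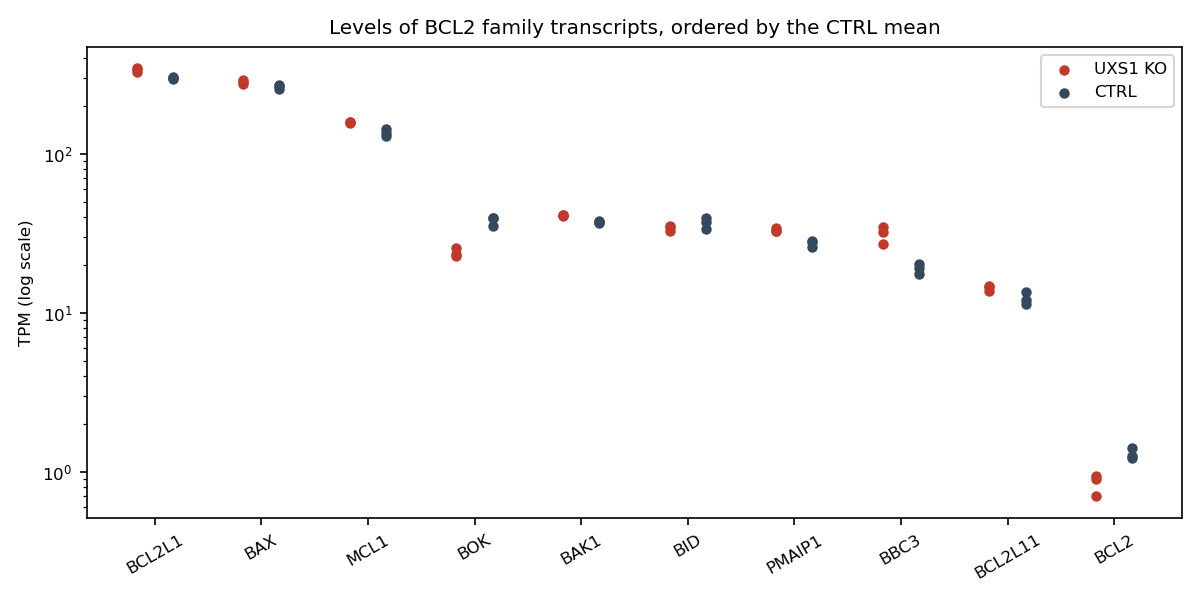
Level of each member in TPM on a log axis in the 3 libraries of each group, UXS1 KO left of CTRL, with members ordered by the CTRL mean. The group means of BCL2L1, BAX and MCL1 lie between 136.2 and 336.8 TPM, and those of BCL2 are 0.84 TPM in UXS1 KO and 1.30 TPM in CTRL libraries.

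In absolute terms the abundant guardians gained most. The difference of means, UXS1 KO minus CTRL, was 37.4 TPM for BCL2L1 and 20.7 TPM for MCL1. The pro-apoptotic BAX came next with 17.2 TPM, then BBC3 with 12.3 TPM, while BOK was at -14.0 TPM and the rare BCL2 at -0.45 TPM. Summed over the BH3-only members, the level was 112.8 ± 2.12 TPM in UXS1 KO and 95.2 ± 1.63 TPM in CTRL libraries. The groups did not overlap in this sum, which leaves out the BH3-only gene BAD. The effectors summed to 346.5 ± 9.23 TPM in UXS1 KO and 339.4 ± 7.19 TPM in CTRL libraries, and the groups overlapped, with the fall of BOK set against slightly higher values of BAX and BAK1. Together the 7 pro-apoptotic members summed to 459.3 ± 7.30 TPM in UXS1 KO and 434.6 ± 8.43 TPM in CTRL libraries, without overlap. The anti-apoptotic members summed to 494.5 ± 9.38 TPM in UXS1 KO and 436.8 ± 2.00 TPM in CTRL libraries, also without overlap.

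The ratio of pro-apoptotic to anti-apoptotic mRNA was 0.917, 0.908 and 0.962 in UXS1 KO libraries, against 0.968, 1.01 and 1.00 in CTRL libraries. All UXS1 KO values were lower, though UXS1 KO replicate 3 and CTRL replicate 1 nearly met, and the mean ratio in UXS1 KO was 93.4% of that in CTRL. BOK, at -14.0 TPM, enters this ratio, and the separation of the groups can rest on that gene alone. The BH3-only members alone gave the other direction. Their ratio to the anti-apoptotic sum was 0.226, 0.230 and 0.228 in UXS1 KO libraries, against 0.214, 0.223 and 0.217 in CTRL libraries. That ratio leaves out BAD, a BH3-only gene outside the members, which fell and averaged 74.8 TPM in UXS1 KO and 87.1 TPM in CTRL libraries. BAD stood above each BH3-only member in TPM, so this direction is that of the chosen members only. The ratio of BAX to BCL2L1 was 0.84 ± 0.044 in UXS1 KO and 0.88 ± 0.025 in CTRL libraries, and the groups overlapped. BBC3 mRNA came to 6.32% of the anti-apoptotic sum in UXS1 KO and 4.34% in CTRL libraries. Sums and ratios are dominated by BCL2L1 and BAX, which made 35.3% and 29.5% of the members' summed TPM in UXS1 KO libraries, against 34.4% and 30.3% in CTRL libraries. They also weigh all mRNAs alike, whatever the proteins bind.

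**Figure D4:**
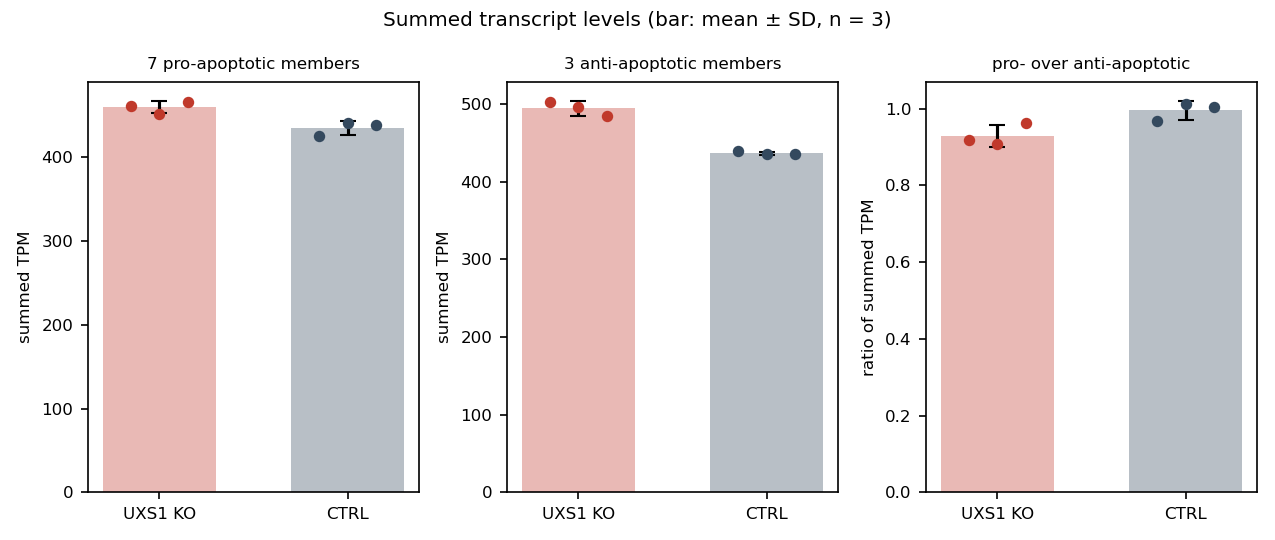
Summed TPM of the 7 pro-apoptotic members and of the 3 anti-apoptotic members, and the ratio of these sums, with points for libraries and bars for the mean ± SD (n = 3), UXS1 KO left of CTRL. Both sums are higher and the ratio is lower in every UXS1 KO library than in any CTRL library.

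The promoter windows of BBC3, PMAIP1, BCL2L11 and BAX are shown because these genes are textbook targets of stress-activated transcription factors. Each is the 250 bases before the RefSeq gene start (GRCh38.p14), written in the direction of the gene, and entries for 9 of the 10 members were used (not MCL1). Capitals mark matches, on either strand, to the E-box CACGTG, to the FOXO motif GTAAACA and to TGACG, which forms one arm of the cAMP response element. The windows are chr19:47232668-47232917 on the minus strand for BBC3, chr18:59899746-59899995 on the plus strand for PMAIP1, chr2:111120664-111120913 on the plus strand for BCL2L11 and chr19:48954625-48954874 on the plus strand for BAX.
BBC3: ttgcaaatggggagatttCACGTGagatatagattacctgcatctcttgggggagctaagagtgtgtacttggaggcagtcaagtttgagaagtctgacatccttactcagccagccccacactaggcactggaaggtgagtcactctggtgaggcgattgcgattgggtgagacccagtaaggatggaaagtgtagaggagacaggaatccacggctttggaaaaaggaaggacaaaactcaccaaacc
PMAIP1: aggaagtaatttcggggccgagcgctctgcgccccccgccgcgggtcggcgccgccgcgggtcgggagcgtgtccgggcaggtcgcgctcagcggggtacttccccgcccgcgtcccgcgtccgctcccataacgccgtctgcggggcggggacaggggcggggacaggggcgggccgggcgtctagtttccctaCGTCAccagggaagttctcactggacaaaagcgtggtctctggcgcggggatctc
BCL2L11: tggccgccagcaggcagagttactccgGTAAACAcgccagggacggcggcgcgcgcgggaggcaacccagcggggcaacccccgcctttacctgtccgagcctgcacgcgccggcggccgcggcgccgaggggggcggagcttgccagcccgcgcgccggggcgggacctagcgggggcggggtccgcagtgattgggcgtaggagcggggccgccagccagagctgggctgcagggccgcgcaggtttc
BAX: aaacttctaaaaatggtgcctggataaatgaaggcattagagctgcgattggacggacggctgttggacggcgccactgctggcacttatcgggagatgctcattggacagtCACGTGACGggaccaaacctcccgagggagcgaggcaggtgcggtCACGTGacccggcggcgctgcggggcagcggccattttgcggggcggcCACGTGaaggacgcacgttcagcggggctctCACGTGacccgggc
BAX held 4 matches to CACGTG, at 138, 93, 45 and 14 bases before the start, and the first of them runs into a TGACG at 134 bases. Of 35116 RefSeq promoter entries of the same length, 6.34% held at least 1 CACGTG and only 5 held 4 or more. BBC3 held 1 CACGTG at 232 bases, BCL2L11 held 1 GTAAACA at 223 bases, a match found in 2.98% of entries, and PMAIP1 held 1 TGACG on the other strand at 55 bases, a match found in 21.2% of entries. Among the members not shown, BCL2 and BCL2L1 each held 1 TGACG, at 225 and 201 bases. BID held 1 CACGTG, the same site in 2 overlapping entries at 106 and 47 bases, and its other entries held none. BOK and BAK1 held no match to these 3 patterns. Such matches are letters in a window, and binding was not measured.

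The other genes of the family moved in both directions too. Of the 14 listed, 11 passed the filter, and 4 rose, 2 fell and 5 did not pass the test, with a median log2 fold change of -0.02. Over all tested genes 24.5% were called higher and 23.7% lower, so these counts are not read as a trait of the list. BCL2L15, a little studied relative, rose to 5.57, 5.23 and 4.56 CPM in UXS1 KO libraries, against 3.18, 3.04 and 3.29 CPM in CTRL libraries (log2 fold change 0.69, edgeR adjusted p = 0.000133). BECN1, the autophagy protein that carries a BH3 segment and is held by BCL2, rose by 0.22, with 71.8, 68.6 and 68.1 CPM in UXS1 KO against 62.0, 61.2 and 55.8 CPM in CTRL libraries (edgeR adjusted p = 0.000306). BCL2L13, a mitophagy receptor, rose by 0.13 (edgeR adjusted p = 0.0124), a call lost in 6 of 16 alternative settings. BCL2A1, an anti-apoptotic relative, was near the detection limit at 0.664 CPM in UXS1 KO and 0.311 CPM in CTRL libraries, and its rise (edgeR adjusted p = 0.0277) was lost in 7 of 15 settings.

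BAD, a BH3-only protein that growth factor kinases hold inactive, fell, with 35.6, 38.2 and 36.2 CPM in UXS1 KO against 40.1, 43.4 and 44.5 CPM in CTRL libraries (log2 fold change -0.22, edgeR adjusted p = 0.00129). BCL2L12, another relative, fell by 0.40 on the log2 scale, with 30.8, 33.4 and 28.5 CPM in UXS1 KO against 38.4, 43.9 and 39.5 CPM in CTRL libraries (edgeR adjusted p = 5.95e-06). Exons on the opposite strand cover 23.7% of BAD (from GPR137) and 33.1% of BCL2L12 (from IRF3). The BH3-only genes BIK and BMF had log2 fold changes of -0.16 and -0.08, the anti-apoptotic BCL2L2 of -0.14, and the mitophagy receptors BNIP3 and BNIP3L of -0.02 and 0.07, and none of these passed.

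Of the 12 apoptosome, caspase and nuclease genes, which act after the mitochondrial step, 1 rose and 2 fell, and the median log2 fold change was -0.05. The shares over all tested genes, 24.5% called higher and 23.7% lower, are the background for each count in this paragraph. CASP9, the initiator caspase activated on the apoptosome, had 22.40, 19.98 and 20.61 CPM in UXS1 KO against 17.9, 17.5 and 18.1 CPM in CTRL libraries (log2 fold change 0.23, edgeR adjusted p = 0.00509). ENDOG, a mitochondrial nuclease, fell by 0.28 on the log2 scale (edgeR adjusted p = 0.00457), and DFFA, the inhibitor of the caspase-activated nuclease, fell by 0.14 on that scale (edgeR adjusted p = 0.0222, lost in 6 of 16 settings). Of the 6 tested inhibitors of apoptosis proteins 1 rose and 1 fell, and their median log2 fold change was -0.025. BIRC3, which is induced by NF-kB, rose by 0.27 (edgeR adjusted p = 0.00349, lost in the 3 TPM settings). Its groups overlapped, with 21.7 CPM in UXS1 KO replicate 2 and 22.3 CPM in CTRL replicate 3. BIRC5, survivin, which also serves in mitosis, fell to 104.7, 107.1 and 105.6 CPM in UXS1 KO libraries, against 157.6, 166.8 and 162.4 CPM in CTRL libraries (log2 fold change -0.62, edgeR adjusted p = 3.36e-13). Genes of the mitochondrial membrane that bind or serve family members included 5 that fell among 8 tested, beside 23.7% of all tested genes. Their median log2 fold change was -0.16, and so few genes allow no statement about the list. By edgeR 0 of them rose, and 0 did so at an unadjusted p under 0.05 or by DESeq2 or limma-voom. With limma on log2(TPM + 1) without a filter, 1 was higher at an unadjusted p of 0.037, and 0 after adjustment. Those that fell were the channels VDAC1 (-0.24), VDAC3 (-0.18) and VDAC2 (-0.15), the fusion protein OPA1 (-0.19) and the fission protein DNM1L (-0.17), all as log2 fold changes. DNM1L lost its call in that unfiltered TPM setting.

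In the extrinsic branch, which reaches mitochondria through BID, 4 of 11 death receptor and adaptor genes rose and 1 fell, with a median of -0.04. Beside them, 24.5% of all tested genes were called higher and 23.7% lower. The receptors FAS, TNFRSF10B and TNFRSF1A rose by 0.54, 0.42 and 0.20 on the log2 scale and the initiator caspase gene CASP10 by 0.39, while CFLAR, which encodes the caspase 8 inhibitor FLIP, fell by 0.18 on that scale. CASP10 did not pass on log2(TPM + 1) without a filter, and CFLAR in none of the 3 TPM settings.

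Upstream of the members, 2 of 12 listed transcription factors rose and 3 fell, and the median log2 fold change was 0.004. These counts stand beside 24.5% called higher and 23.7% called lower over all tested genes. TP63, a factor of epithelial basal cells, had 14.43, 15.04 and 13.73 CPM in UXS1 KO against 9.60, 9.06 and 7.67 CPM in CTRL libraries (log2 fold change 0.71, edgeR adjusted p = 2.33e-07). FOXO3, a forkhead factor known to activate BCL2L11 and BBC3, rose by 0.32 (edgeR adjusted p = 0.000542). It did not pass with limma on log2(TPM + 1) without a filter (adjusted p = 0.0804). MYC, which can raise BCL2L11 and lower BCL2, fell to 76.4, 76.5 and 77.7 CPM in UXS1 KO libraries, against 118.9, 120.4 and 116.1 CPM in CTRL libraries (log2 fold change -0.62, edgeR adjusted p = 4.36e-13). E2F1, an S-phase factor that can induce BH3-only genes, fell by 0.54 on the log2 scale (edgeR adjusted p = 5.25e-10), and ATF4, a factor of the integrated stress response that can induce PMAIP1 and BBC3, fell by 0.13 on that scale.

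Among 7 tested genes for protein turnover, 1 rose and 3 fell, beside 24.5% called higher and 23.7% called lower over all tested genes. MDM2, a ubiquitin ligase, had 117.4, 116.0 and 111.8 CPM in UXS1 KO against 74.0, 67.4 and 69.4 CPM in CTRL libraries (log2 fold change 0.71, edgeR adjusted p = 1.98e-13). MDM4, a relative that pairs with MDM2, fell by 0.29 on the log2 scale, a call lost with limma on log2(TPM + 1) without a filter. HUWE1, a ubiquitin ligase of MCL1, fell by 0.13 on that scale with overlapping groups, 334.9, 329.5 and 355.2 CPM in UXS1 KO against 423.8, 334.4 and 357.5 CPM in CTRL libraries. The HUWE1 call rested on CTRL replicate 1 (edgeR adjusted p = 0.0497 with it and 0.633 without it) and was lost in 10 of 16 settings. USP9X, which removes ubiquitin from MCL1, fell by 0.17 on that scale and lost its call in the 3 TPM settings. VDAC2, CFLAR and ATF4 were singled out after their values were seen.

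**Figure D5:**
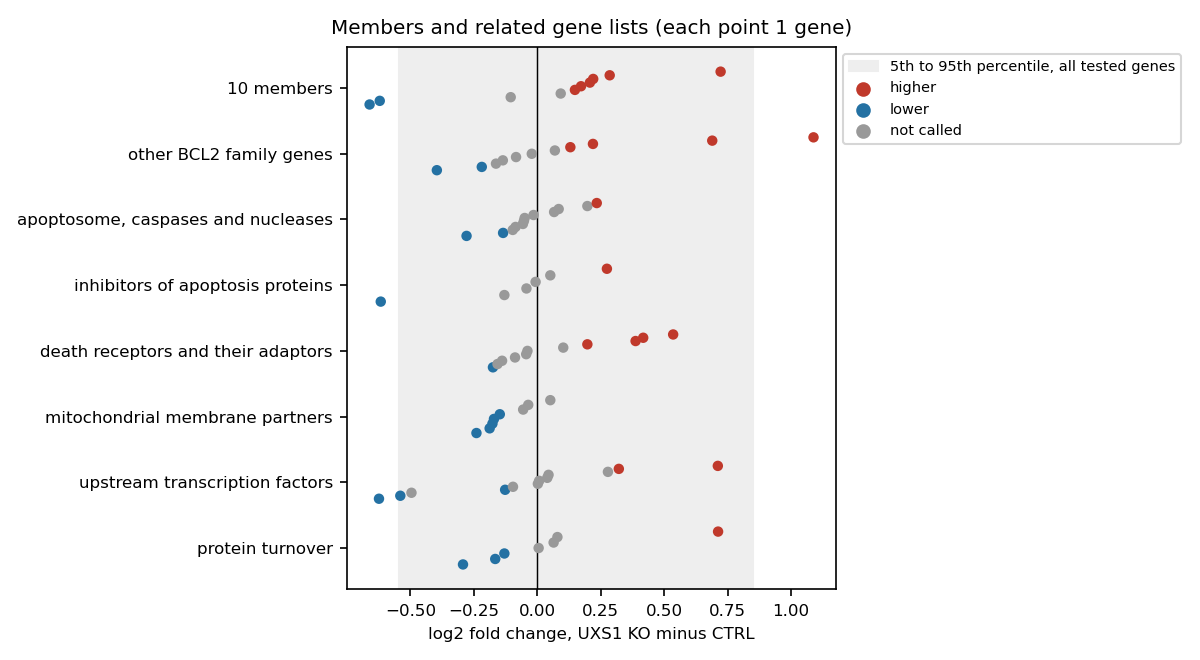
Log2 fold change of every tested gene, UXS1 KO over CTRL, in the 10 members and 7 related lists, with 1 point per gene coloured by direction where called and grey shading between the 5th and 95th percentile of all tested genes (-0.55 to 0.85). Among the members BOK and BCL2 lie below the shading and none lies above it, and the called mitochondrial membrane genes all lie below 0.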

How the data were processed

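RNA-seq of 6 A549 libraries was analysed, 3 UXS1 KO and 3 CTRL. The authors deposited a table of counts per gene and a table of TPM values. Per the submitters' processing notes, STAR, featureCounts and DESeq2 were used with build hg38. The sources used here give no version, annotation release or strand setting. Columns were matched to libraries by their names.

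The deposited counts were scaled by TMM and tested with edgeR 4.0.16 in R 4.3.3 (quasi-likelihood test, group as the only term, two-sided, Benjamini-Hochberg adjusted p under 0.05) over the 15757 of 28317 genes that passed filterByExpr with a minimum count of 10. The biological coefficient of variation was 3.32%. The procedure was tested on simulated data. CPM are the counts normalised to library size after TMM. Levels between genes were compared in the authors' TPM.

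Alternatives were other scalings, no filter or a mean of at least 5 CPM, DESeq2 1.42.0, limma 3.58.1 (voom on counts, and trend on log2(TPM + 1) or log2(TPM + 0.1) with or without a mean TPM of at least 1), a replicate block, and leaving out each library.

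The members, gene lists and tests were chosen with earlier results of these data known. The genes named were UXS1, the 10 members, the tested relatives, and up to 4 genes with the smallest adjusted p of each other list. Markers were named mostly where abundant or changed. Also named were the 3 genes of at least 5 mean CPM whose profile was most like that of BBC3 and of BOK. Medians and counts over lists are descriptions, with no test. BH3 coding stretches came from GENCODE 29 and promoter windows from RefSeq. The BH3 pattern was searched in proteins translated from the GENCODE 29 coding sequences, and no amino acid sequence is printed. Of the listed genes, 1 is not reported by name here.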

Additional observations from a re-analysis of the deposited data

How the results depend on the processing

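BBC3, PMAIP1, BOK, BCL2L1 and MCL1 kept their direction and their call in 16 of 16 alternatives, with log2 fold changes of 0.64 to 0.82 for BBC3 and -0.70 to -0.63 for BOK. BCL2L11 was called in 13 of 16 and BAK1 in 10 of 16. BAX was called as higher in 5 of 16 and BID as lower in 1 of 16. The number of pro-apoptotic members called as lower was 1 to 2 when single libraries were left out, and it was 2 without CTRL replicate 1, where BID joined BOK. The number of anti-apoptotic members called as lower was 0 with a mean of at least 5 CPM, a filter that removes BCL2, and 0 with limma in each of the 3 TPM settings (1 at an unadjusted p under 0.05 without a filter, 0 in the others). The cause was not tested. With the replicate number as a block, 4002 genes were higher and 3896 lower, 5 pro-apoptotic members rose, BAX among them (adjusted p = 0.022), and no member lost its call. The numbers are not shown to pair the libraries: deviations of same-numbered libraries correlated at 0.0101, 0.106 and 0.143 over 11133 genes, and not every library correlated best with its own number. DESeq2 called 2937 genes as higher and 2863 as lower, fewer than edgeR's 3863 and 3727. The log2 ratio of pro-apoptotic to anti-apoptotic TPM, -0.10, was -0.09 without MCL1 and -0.12 without BAX. BOK, which differed by -14.0 TPM, was not left out in this way, so the dependence of the ratio on BOK was not tested. Depth limits the precision of genes with few counts, BCL2 and BCL2A1 among them.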

Other observations

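Across the 6 libraries, the genes of at least 5 mean CPM whose log2 CPM was most like that of BBC3 were RBFOX3 (Pearson r = 0.9992), ATP5MG (0.9989) and UBAP1 (0.9971). For BOK they were PFKFB3 (0.9997), BICC1 (0.9995) and CENPJ (0.9992). These values are descriptions over 6 points that share their libraries and their groups, chosen as the highest among 11132 genes, and with so many genes and so few points high values are easily reached.

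Libraries of one group differed less from each other than from the other group. The chi-square per degree of freedom over genes was 1.6 to 3.39 within groups and 26.2 to 28.8 between groups, so no pair of libraries agreed within sampling noise.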
